A study of Mus musculus with 8 samples.

Results

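Long noncoding RNAs and the host transcripts of microRNAs and small nucleolar RNAs were followed in the infarcted mouse heart. The group consists of 9 genes among the 24062 in the deposited count tables, chosen by symbol: Malat1, Neat1 and Miat, which are retained in the nucleus, Gas5, Snhg1 and Snhg12, which carry small nucleolar RNAs (snoRNAs) in their introns, and Mir22hg, Mir17hg and Dnm3os, which carry microRNAs. All 9 symbols were also found as gene names in the deposited transcript tables. The 4 groups were myocardial infarction (MI) at 1 day, sham surgery at 1 day, MI at 3 days and sham surgery at 3 days, with 2 mice and 2 libraries in each. Every mouse was a male of the C57BL/6 strain aged 8-12 weeks, with no engineered allele or drug given in the labels. MI was made by ligation of the LAD coronary artery, and sham animals had the operation without ligation. Left ventricular free wall was frozen and powdered, and its total RNA was freed of ribosomal RNA and read from both ends. Within a group, library A is the one whose counts stand first and library B the other, since their columns hold no replicate number. Nothing further is given on whether the mice of a group shared a litter or an operation day.

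Most of these transcripts are known for where they act or what they carry rather than for any protein. Malat1 RNA lies in nuclear speckles, where splicing factors gather, and Neat1 RNA is the scaffold of paraspeckles, nuclear bodies that hold back certain RNAs and proteins. In a snoRNA host gene the introns yield snoRNAs that guide chemical modification of ribosomal RNA, and the spliced remainder is usually short-lived because it is degraded by nonsense-mediated decay while it is translated. In a microRNA host gene the primary transcript is cut by the nuclear enzyme Drosha into hairpins, so a host transcript can be counted in RNA sequencing although its mature microRNAs are too short to be.

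Mature microRNAs that the 3 microRNA hosts carry are shown with their seeds (bases 2 to 8, in capitals), which choose the targets. For several hairpins the mature microRNA of the other arm is not shown. The sequences are those of RefSeq on GRCm38.p6, the assembly of the mm10 build named in the submitters' processing notes. Mir22hg on chromosome 11 carries a lone hairpin, Mir17hg on chromosome 14 carries the miR-17-92 cluster, and Dnm3os on chromosome 1 carries miR-199a and miR-214.
miR-22-3p: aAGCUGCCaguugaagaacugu
miR-17-5p: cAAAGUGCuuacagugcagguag
miR-20a-5p: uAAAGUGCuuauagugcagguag
miR-18a-5p: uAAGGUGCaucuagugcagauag
miR-19a-3p: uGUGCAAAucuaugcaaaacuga
miR-19b-3p: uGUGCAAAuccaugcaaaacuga
miR-92a-3p: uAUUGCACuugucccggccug
miR-199a-5p: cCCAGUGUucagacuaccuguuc
miR-199a-3p: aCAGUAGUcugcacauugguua
miR-214-3p: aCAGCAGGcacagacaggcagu
Within the cluster of Mir17hg, miR-17-5p shares its seed with miR-20a-5p, and miR-19a-3p shares its seed with miR-19b-3p.

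The 8 libraries held 7382490 to 25041386 gene counts. Levels are in CPM, gene counts scaled to the effective library sizes, and changes are log2 fold changes of MI over sham with a standard error (SE) from the same fit. A gene was called when its p from edgeR's quasi-likelihood test, adjusted by Benjamini-Hochberg over all 15508 genes tested, was below 0.05. Tissue makeup moved with MI: all 10 cardiomyocyte markers fell on both days, 9 of 9 neutrophil markers rose at 1 day and 8 of 9 at 3 days, and 0 of 10 proliferation markers rose at 1 day against 10 of 10 at 3 days. In bulk tissue, fewer cells of a type and less RNA per cell cannot be told apart. MI library B at 1 day stood apart, with reads for 92.3% of 1506 chemosensory receptor genes against 4.45 to 50.6% in the other libraries. Deposited sample numbers run apart between MI and sham and also between the days. A batch that coincided with surgery or with day therefore cannot be told apart from MI or from time after it.

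Of the 9 genes, 8 passed the filter on low counts, each with at least 28 counts in every library, and Miat did not. At 1 day 6 of the 8 tested were called, all of them higher after MI, where 39.0% of all genes tested were called, 19.3% higher and 19.7% lower. At 3 days all 8 tested were called, 6 higher and 2 lower, where 55.4% of all genes tested were called, 31.7% higher and 23.7% lower. The median log2 fold change of the 8 was 2.11 at 1 day and 1.71 at 3 days, beside 0.12 and 0.16 over all genes tested. MI and sham libraries did not overlap for 7 of the 8 at 1 day and for 8 of 8 at 3 days, where 67.3 and 81.0% of all genes tested did not overlap. The effect differed between the days for 5 of the 8, higher at 3 days for 1 and lower for 4, where 24.5% of all genes tested were called, 13.2% higher and 11.3% lower. Between the infarcted groups 6 of the 8 were called, 3 higher at 3 days than at 1 day (Gas5, Snhg1 and Dnm3os) and 3 lower (Malat1, Neat1 and Mir22hg), where 45.4% of all genes tested were called, 23.4% higher and 22.0% lower. Between the sham groups 0 of the 8 were called by edgeR, where 0.00% of all genes tested were called. Its unadjusted p was under 0.05 for 3 of the 8 (Malat1, Mir17hg and Gas5) and for 1210 of the 15508 genes tested. The median log2 difference between the sham groups, 3 days minus 1 day, was 0.82 for the 8, beside -0.008 over all genes tested.

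**Figure D1:**
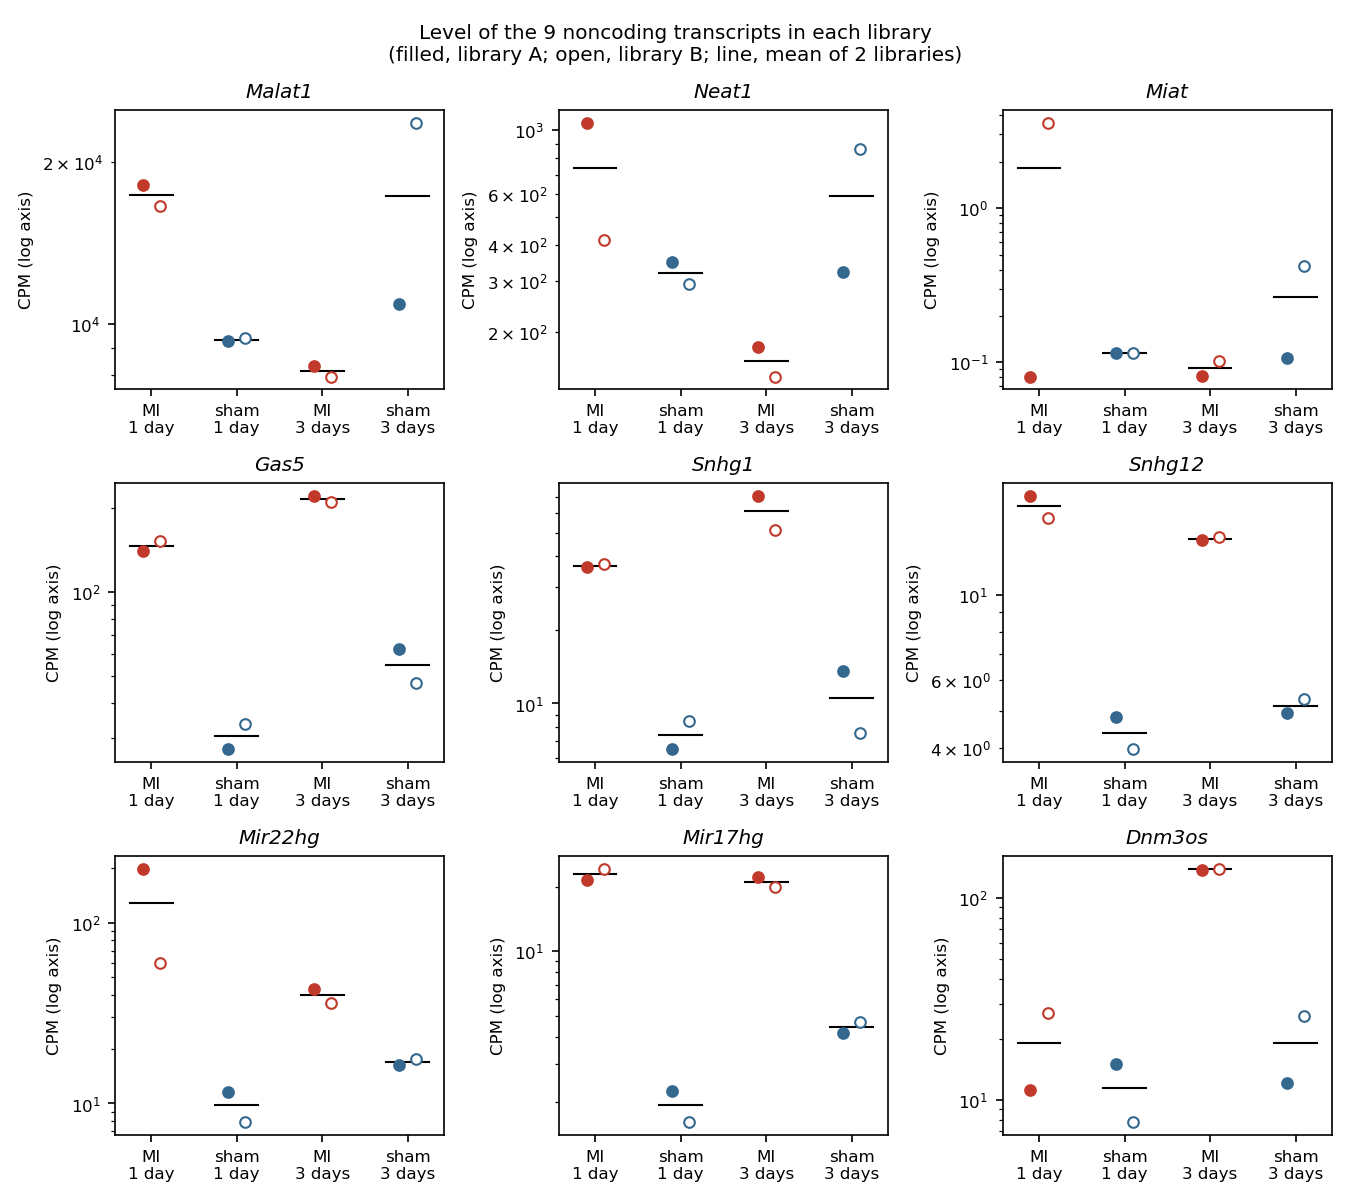
CPM (log axis, a scale of its own in each panel) of the 9 transcripts in each library, with MI left of sham at 1 day and then at 3 days; filled points are library A, open points library B and lines the mean of 2. Gas5, Snhg1, Snhg12, Mir22hg and Mir17hg lie higher after MI on both days, Malat1 and Neat1 lie above sham at 1 day and below it at 3 days, and the Miat points other than MI library B at 1 day and sham library B at 3 days rest on at most 3 counts.

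Malat1 and Neat1 were both lower after MI at 3 days, and Malat1 was higher at 1 day. Malat1 rose 1.86-fold at 1 day and fell 2.12-fold at 3 days, and Neat1 fell 3.74-fold at 3 days. The effect of MI differed between the days, past the test, for both genes. The share of transcript-table reads on the mitochondrial genome was 28.7 and 43.3% in the MI libraries at 1 day, against 15.0 and 13.9% in the sham libraries, and 6.51 and 4.19% in the MI libraries at 3 days, against 16.6 and 15.7% in the sham libraries. It too was higher after MI at 1 day and lower at 3 days, and its part in the values of both genes was not tested. Malat1 (chromosome 19, 5795690 to 5802672) is among the most abundant nuclear RNAs of mammalian cells, and Neat1 (chromosome 19, 5824708 to 5845480) is its neighbour on the chromosome.

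Malat1 had 18174 and 16579 CPM in MI libraries A and B at 1 day, against 9277 and 9383 CPM in the sham libraries. The MI libraries of 3 days had 8349 and 7964 CPM, against 10877 and 23678 CPM in the sham libraries. The groups did not overlap on either day, and sham library B at 3 days was the highest of all 8. The log2 fold change was 0.90 (SE 0.31, adjusted p = 0.0426) at 1 day and -1.08 (SE 0.31, adjusted p = 0.0135) at 3 days. The effect at 3 days minus that at 1 day was -1.98 (SE 0.43, adjusted p = 0.0102). The call at 1 day was lost without any 1 of 6 libraries (adjusted p 0.0815 to 0.243 without either MI or either sham library of 1 day), and without sham library B the change at 3 days was -0.40 (adjusted p = 0.187) and the difference -1.24 (adjusted p = 0.0267). Without MI library B of 3 days the change at 3 days was -1.28. The call at 3 days was lost in 2 of the 8 fits that leave out 1 library.

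Neat1 had 1061 and 416 CPM in the MI libraries at 1 day, against 349 and 292 CPM in the sham libraries. At 3 days the MI libraries had 176 and 140 CPM, against 322 and 860 CPM in the sham libraries. As for Malat1, the groups did not overlap on either day, and sham library B at 3 days was the higher sham library. At 1 day the log2 fold change was 1.21 (SE 0.48) and did not pass the test (adjusted p = 0.0726), whereas the authors' deposited table gives 1.12 with an adjusted p of 0.0142. At 3 days it was -1.90 (SE 0.49, adjusted p = 0.00829), and the effect at 3 days minus that at 1 day was -3.11 (SE 0.69, adjusted p = 0.0105). Without sham library B of 3 days the change at 3 days was -1.01 and the difference -2.17. Without MI library B of 3 days the change at 3 days was -1.97. Of the 8 fits that leave out 1 library, 2 lost the call at 3 days and 4 lost that of the difference.

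Between the infarcted groups alone, Malat1 was lower at 3 days than at 1 day (log2 difference -1.09, adjusted p = 0.0166), as was Neat1 (-2.23, adjusted p = 0.00527). These differences compare MI libraries alone, but their scaling and p came from the fit of all 8 libraries. With 1 library left out, the call was lost in 5 of 8 fits for Malat1 and in 1 of 8 for Neat1. A batch that coincided with day cannot be told apart from time in this comparison. In the sham groups, 3 days minus 1 day was 0.89 for Malat1 and 0.88 for Neat1, neither called (adjusted p = 0.631 and 0.642).

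The transcript tables gave the same directions from other features. The 4 Malat1 transcripts there are short, 485 to 656 bases, and lie at the ends of a gene that spans 6983 bases. Their summed reads changed by 0.96 (adjusted p = 0.0212) at 1 day and by -0.90 (adjusted p = 0.0186) at 3 days on the log2 scale, where 36.9% of genes were called at 1 day and 53.8% at 3 days in these tables. Reads at the 5′ end over reads at the 3′ end were 0.483 and 0.279 in the MI libraries at 1 day, against 0.253 and 0.325 in the sham libraries, and 0.355 and 0.380 in the MI libraries at 3 days, against 0.342 and 0.395 in the sham libraries. The ranges of this ratio overlapped on both days. For Neat1 the tables hold transcripts of 3004 and 1030 bases within a span of 20773, so the long isoform that builds paraspeckles was not measured apart from the short isoform. Neat1 reads summed there changed by 1.20 (adjusted p = 0.0474) at 1 day and by -1.79 (adjusted p = 0.00508) at 3 days.

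The proteins of the nuclear bodies that these RNAs belong to did not move as a block. Of 10 paraspeckle proteins, 4 rose and 1 fell at 1 day, and 5 rose and 1 fell at 3 days. Nono, a core paraspeckle protein, rose by 1.81 at 3 days (adjusted p = 3.4e-05). The effect on Nono at 3 days minus that at 1 day was 1.94 (adjusted p = 0.0011), the other way from Neat1. Of 15 speckle proteins, 6 rose and 0 fell on each day, where 19.3% of all genes tested rose at 1 day and 31.7% at 3 days. Among them were the splicing factor genes Srsf5, which rose by 1.71 at 1 day (adjusted p = 0.00334), and Srsf3, which rose by 1.64 at 3 days (adjusted p = 4.75e-05). Median log2 fold changes were 0.31 and 0.56 for the paraspeckle list and 0.51 and 0.55 for the speckle list, at 1 and 3 days.

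Miat, a nuclear RNA first described at a locus linked to myocardial infarction in people, was close to absent. It had 1 and 29 counts in the MI libraries at 1 day, against 2 and 2 in the sham libraries, and 2 and 3 counts in the MI libraries at 3 days, against 2 and 8 in the sham libraries. The 29 counts were in MI library B at 1 day, the library with reads for 92.3% of the chemosensory receptor genes. With 5 of the other 7 libraries at 2 counts or fewer, no fold is given.

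**Figure D2:**
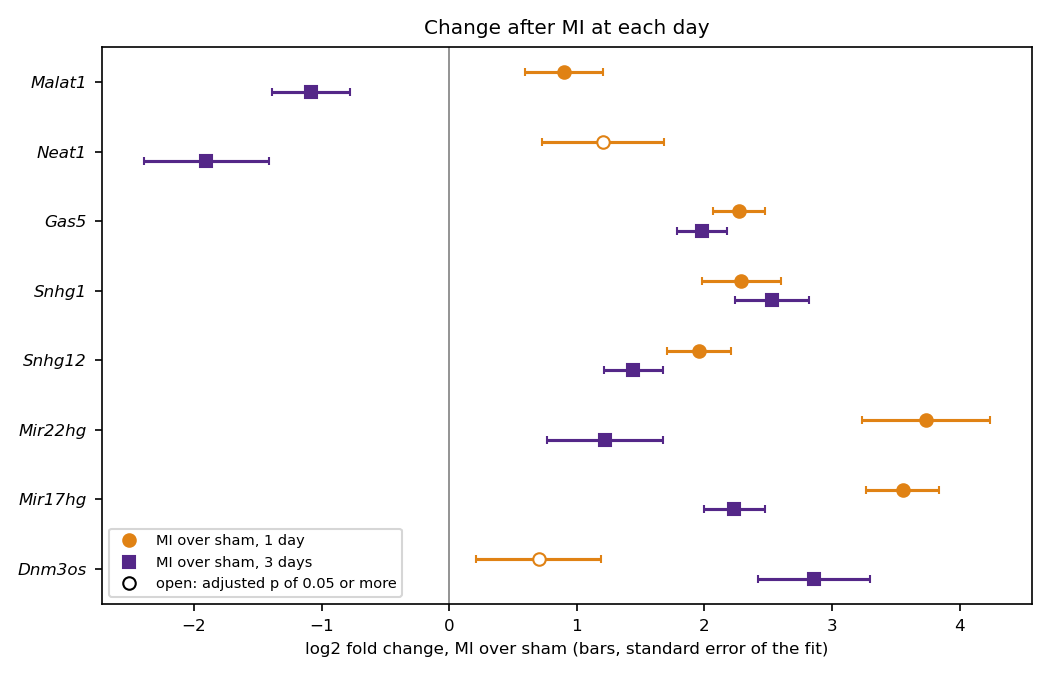
Log2 fold change of MI over sham (horizontal axis) for the 8 tested transcripts, with circles for 1 day and squares for 3 days; bars are the standard error of the fit and open symbols did not pass the test. Malat1 and Neat1 lie on opposite sides of 0 on the 2 days, Gas5 and Snhg1 stay near 2 or above on both, and Dnm3os moves to 2.86 at 3 days.

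All 3 snoRNA host transcripts rose on both days in the gene counts. Gas5 rose 4.82-fold at 1 day and 3.94-fold at 3 days, Snhg1 rose 4.89-fold and 5.78-fold, and Snhg12 rose 3.89-fold and 2.72-fold. For none of the 3 did the effect at 3 days minus that at 1 day pass the test in the gene counts, with log2 differences of -0.29 (SE 0.27), 0.24 (SE 0.42) and -0.52 (SE 0.35). Gas5 (chromosome 1, 161034601 to 161038539) is named for growth arrest, and Snhg1 (chromosome 19, 8723487 to 8726326) is also called the U22 host gene after its snoRNA. Snhg12 (chromosome 4, 132308678 to 132311024) carries snoRNAs of the H/ACA class and also Snord99.

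Gas5 had 141 and 153 CPM in the MI libraries at 1 day, against 27.2 and 33.6 CPM in the sham libraries. In the MI libraries of 3 days its level was 221 and 210 CPM, against 62.6 and 47.0 CPM in the sham libraries. The libraries of a group lay close together and the groups were far apart. The log2 fold change was 2.27 (SE 0.20, adjusted p = 0.000137) at 1 day and 1.98 (SE 0.20, adjusted p = 2.69e-05) at 3 days. Gas5 shares part of its span with the end of the protein-coding gene Zbtb37, whose reads cannot be told apart there without a known strand setting. Zbtb37 changed by 0.67 (adjusted p = 0.125) at 1 day and by -0.44 (adjusted p = 0.242) at 3 days, and passed the test on neither.

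Snhg1 had 36.1 and 37.1 CPM in the MI libraries at 1 day, against 6.48 and 8.44 CPM in the sham libraries. The MI libraries of 3 days had 70.8 and 51.5 CPM, against 13.6 and 7.59 CPM in the sham libraries. Each MI library was above each sham library of either day. The log2 fold change was 2.29 (SE 0.31, adjusted p = 0.00068) at 1 day and 2.53 (SE 0.29, adjusted p = 6.29e-05) at 3 days.

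Snhg12 had 18.1 and 15.8 CPM in the MI libraries at 1 day, against 4.80 and 3.96 CPM in the sham libraries. After 3 days the MI libraries had 13.8 and 14.1 CPM, against 4.91 and 5.36 CPM in the sham libraries. Its 4 sham libraries all lay below its 4 MI libraries. The log2 fold change was 1.96 (SE 0.25, adjusted p = 0.000537) at 1 day and 1.44 (SE 0.23, adjusted p = 0.000536) at 3 days.

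The second quantification, reads per transcript, gave another picture for Snhg1 and Snhg12 at 1 day. Summed over its 18 transcripts, Snhg1 had 2039 and 331 reads in the MI libraries at 1 day, against 4535 and 5220 in the sham libraries, a log2 fold change of -1.45 that did not pass the test (adjusted p = 0.0954). At 3 days it had 11958 and 9655 reads in the MI libraries, against 4672 and 1763 in the sham libraries (log2 fold change 1.25, adjusted p = 0.113). The sum over Snhg12's 7 transcripts changed by -0.13 (adjusted p = 0.812) at 1 day and by 1.76 (adjusted p = 0.0033) at 3 days. There, unlike in the gene counts, the Snhg12 effect at 3 days minus that at 1 day was called (1.89, adjusted p = 0.0308), as was its change over time after MI (1.49, adjusted p = 0.011). Gas5, by contrast, changed by 2.19 (adjusted p = 0.000235) and 2.04 (adjusted p = 5.39e-05) in the transcript tables, close to its gene counts.

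The Snhg1 reads of the transcript tables were gathered in 3 transcripts, picked here for their read numbers. These are 2728, 2348 and 495 bases long, and the span of each covers Snord22 (chromosome 19, 8725866 to 8725991), the snoRNA gene also known as U22, as do the spans of 9 of the other 15. They took 91.2 and 59.2% of Snhg1 reads in MI libraries A and B at 1 day, against 98.8 and 98.3% in the sham libraries, and 94.2 and 93.8% in the MI libraries at 3 days, against 97.2 and 96.9% in the sham libraries. The other 15 transcripts together had 180 and 135 reads in the MI libraries at 1 day, against 55 and 89 in the sham libraries, although the MI libraries were the smaller. On the CPM scale these were 14.6 and 16.6 in the MI libraries at 1 day, against 3.18 and 5.11 in the sham libraries, and 28.4 and 20.3 in the MI libraries at 3 days, against 7.10 and 2.92 in the sham libraries. Without the 3 most read transcripts, the MI libraries thus lay above the sham libraries on both days, as in the gene counts.

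Counted as a gene of its own, Snord22 had 242 and 16.8 CPM in MI libraries A and B at 1 day, against 504 and 525 CPM in the sham libraries. At 3 days it had 689 and 504 CPM in the MI libraries, against 434 and 183 CPM in the sham libraries. MI library B at 1 day was the lowest by far, and neither day passed the test, with log2 fold changes of -1.97 (SE 0.85, adjusted p = 0.0934) at 1 day and 0.95 (adjusted p = 0.352) at 3 days. MI library B at 1 day was also the lowest for snoRNAs as a class, a set named after these values were seen. Over all 119 snoRNA genes named by symbol, the summed level without Snord22 was 1282 and 496 CPM in the MI libraries at 1 day, against 1855 and 1644 CPM in the sham libraries, and 2689 and 1908 CPM in the MI libraries at 3 days, against 1964 and 919 CPM in the sham libraries. Whether short RNAs were kept or lost to the same degree in every library is not given, and its part in the host values was not tested.

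The snoRNA genes of Snhg12 had values of their own. Of the 4 snoRNA genes within its span, Snora16a fell at 1 day by 1.77 on the log2 scale (adjusted p = 0.0453), with 32 and 1 counts in the MI libraries against 99 and 88 in the sham libraries, and rose by 1.47 at 3 days (adjusted p = 0.0199), with 213 and 177 counts against 57 and 42. Its effect at 3 days minus that at 1 day was 3.24 (adjusted p = 0.0137), while the host had the same direction on both days in the gene counts. In the transcript tables the host changed by -0.13 at 1 day and by 1.76 at 3 days. Snora61 had 62 and 14 counts in the MI libraries at 1 day, against 101 and 119 in the sham libraries, and 480 and 599 in the MI libraries at 3 days, against 67 and 45 in the sham libraries. It changed by -0.81 (adjusted p = 0.151) at 1 day and rose by 2.74 (adjusted p = 0.000113) at 3 days. Snora44 changed by -1.31 (adjusted p = 0.149) and 0.96 (adjusted p = 0.168). Snord99, with at most 45 counts in a library, rose on both days, by 3.77 (adjusted p = 0.031) and 1.90 (adjusted p = 0.0248).

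Of the snoRNA genes that RefSeq places within Gas5, the count tables name only Snord47. It had 11 and 16 counts in the MI libraries at 1 day, against 2 and 4 in the sham libraries, and 58 and 61 in the MI libraries at 3 days, against 9 and 6 in the sham libraries. Snord47 therefore moved with its host, rising by 2.90 (adjusted p = 0.0206) at 1 day and by 2.45 (adjusted p = 0.00256) at 3 days.

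**Figure D3:**
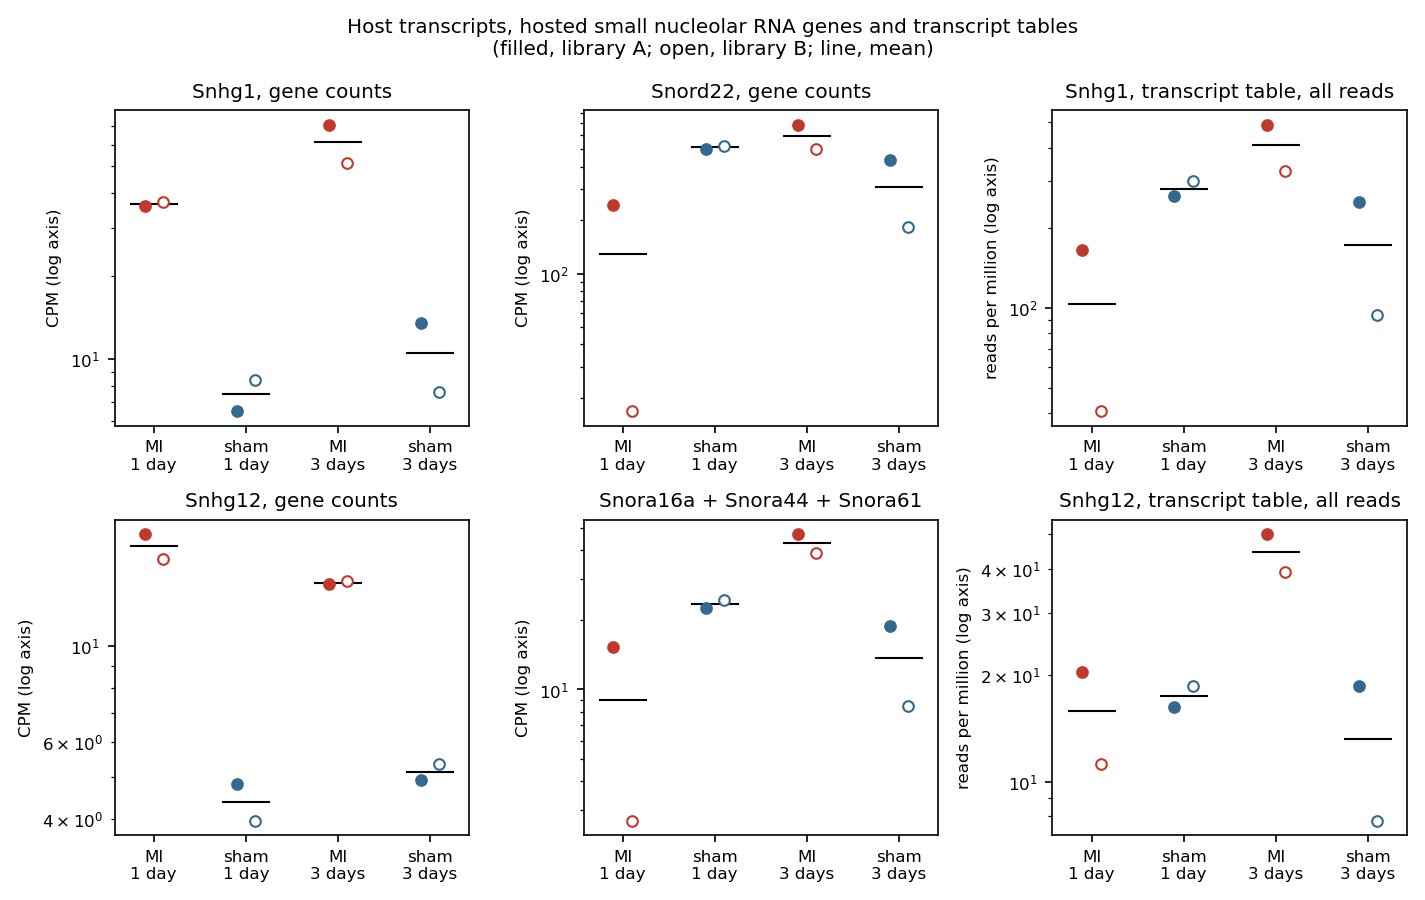
Levels by library (log axes) of Snhg1 and Snhg12 in the gene counts (left), of Snord22 and of the sum of Snora16a, Snora44 and Snora61 in the gene counts (middle) and of the hosts in the transcript tables (right, on the CPM scale), with MI left of sham at each day, library A filled and library B open. In the left panels each MI library lies above each sham library, whereas in the middle and right panels MI library B at 1 day is the lowest or second lowest of the 8.

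Gas5 was spread over 25 transcripts in the transcript tables. The most read was 2556 bases long with 4 exons, and so keeps sequence that is removed as introns from the short forms with up to 12 exons. It had 427 and 355 reads in the MI libraries at 1 day, against 89 and 86 in the sham libraries, and 1301 and 1387 in the MI libraries at 3 days, against 179 and 186 in the sham libraries. This transcript rose by 2.95 (adjusted p = 0.000293) at 1 day, where the 12-exon transcript of 502 bases rose by 1.34 (adjusted p = 0.0311). Its share of Gas5 reads was 47.0 and 49.4% in the MI libraries at 1 day, against 31.6 and 25.8% in the sham libraries, and 39.3 and 42.7% in the MI libraries at 3 days, against 27.1 and 40% in the sham libraries. The shares were higher after MI without overlap at 1 day and overlapped at 3 days. No test was made of the shares.

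Transcripts of snoRNA host genes often start with a run of pyrimidines, the mark of genes whose products serve translation (5′-terminal oligopyrimidine, or TOP, genes). The first 60 bases around the RefSeq start of the 3 hosts, 20 before it and 40 from it on, are shown for this reason, with such a run in capitals: a C within 5 bases of the start followed by at least 4 more C or T.
Gas5, second start, chr1:161035146-161035205, plus strand: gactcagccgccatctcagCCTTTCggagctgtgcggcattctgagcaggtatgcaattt
Snhg12, chr4:132308658-132308717, plus strand: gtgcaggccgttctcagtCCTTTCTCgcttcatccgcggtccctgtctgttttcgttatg
Snhg1, chr19:8723467-8723526, plus strand: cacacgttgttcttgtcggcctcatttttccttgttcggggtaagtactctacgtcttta
Gas5 at its second start and Snhg12 have a run of 6 and 8 bases by this rule, while Gas5 at its first start and Snhg1 have none. Of the members that carry no snoRNA, Dnm3os, Miat and Mir22hg have a run of 12, 7 and 5 bases, and Malat1 and Mir17hg have none. By the same rule 18.3% of 32851 RefSeq promoter windows have a run. The E-box CACGTG and the AP-1 site TGANTCA were searched on both strands. They had 0 matches in the 300-base windows of the 8 genes with an entry, where 7.15 and 7.81% of all windows have a match. Neat1 has no entry. The Mir17hg window, 115044140 to 115044439 on chromosome 14, lies within its microRNA cluster and not before it. The transcript of Mir17hg in the deposited tables begins further upstream, at 115042879. For Mir17hg the search therefore cannot tell whether the promoter of the cluster has a match or a pyrimidine run.

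Other snoRNA host transcripts rose too. Of 18 others listed, 11 were tested. At 1 day 6 of these 11 rose and 0 fell, with a median log2 fold change of 1.11, and at 3 days 8 rose and 0 fell, with a median of 1.71. The shares of all genes tested that rose were 19.3% at 1 day and 31.7% at 3 days. Snhg3, Snhg4, Snhg5, Snhg6 and Snhg7 rose on both days, Snhg11 rose at 1 day by 2.58 (adjusted p = 0.0157) and was not called at 3 days, and Snhg8, Snhg18 and Dancr were called at 3 days and not at 1 day. Snhg5 had the largest called change at 3 days, 3.06 (adjusted p = 4.14e-06). For Snhg6, Snhg8 and Snhg18 the effect was larger at 3 days by the test of the difference, by 1.37, 1.51 and 1.71 (adjusted p = 0.0228, 0.0347 and 0.0412). Snhg9 and Snhg10 were called on neither day.

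Genes of the proteins that bind snoRNAs were called higher or not at all. Of 8 core proteins of snoRNA particles tested, 5 rose at 1 day and 7 at 3 days, and 0 fell, with medians of 1.23 and 1.28. Among all genes tested 19.3% rose and 19.7% fell at 1 day, and 31.7% rose and 23.7% fell at 3 days. Nop58, a core protein of the C/D class, rose by 2.32 (adjusted p = 0.000218) at 1 day and 2.61 (adjusted p = 1.57e-05) at 3 days. Of 13 translation genes of the TOP class, 3 rose and 2 fell at 1 day with a median of -0.30, and 7 rose and 0 fell at 3 days with a median of 0.65. Pabpc1, the poly(A)-binding protein gene, rose by 1.66 at 1 day (adjusted p = 0.000418), and Npm1, a nucleolar protein gene, rose by 2.76 at 3 days (adjusted p = 2.04e-05). Of 10 factors of nonsense-mediated decay, 3 rose and 0 fell at 1 day, led by the kinase gene Smg1 at 1.39 (adjusted p = 0.00523). At 3 days 3 of these 10 rose and 2 fell, led by Upf3b at 0.86 (adjusted p = 0.039). The counts of the TOP genes at 1 day and of the decay factors at 3 days were near the shares over all genes.

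**Figure D4:**
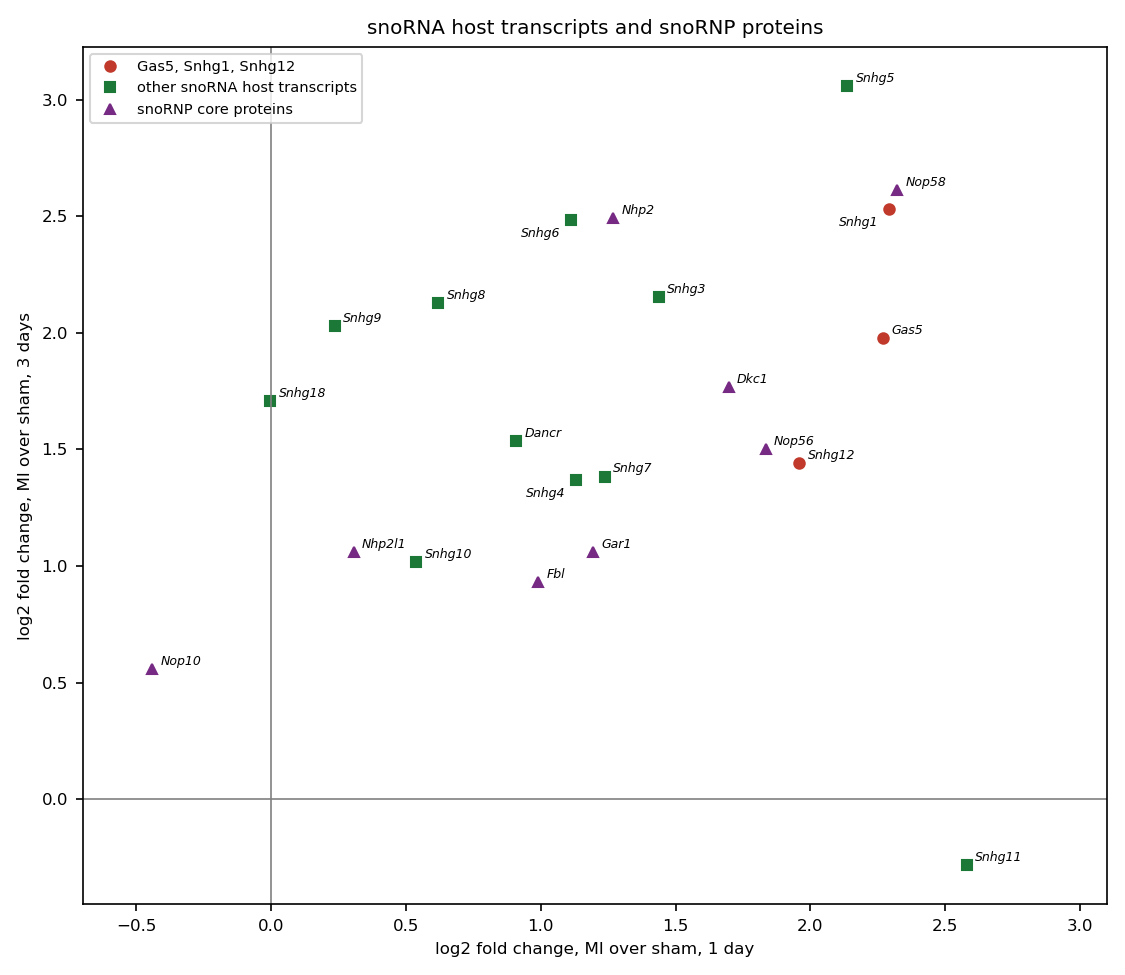
Log2 fold change of MI over sham at 1 day (horizontal axis) against that at 3 days (vertical axis) for Gas5, Snhg1 and Snhg12 (circles), 11 other snoRNA host transcripts (squares) and 8 core proteins of snoRNA particles (triangles). Every point other than Snhg11 lies above 0 at 3 days; the 2 axes come from different MI and sham libraries.

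Monocyte and macrophage markers were also higher after MI on both days. Their summed level over 9 markers was 1251 and 1132 CPM in the MI libraries at 1 day, against 563 and 713 CPM in the sham libraries, and 6493 and 6169 CPM in the MI libraries at 3 days, against 1073 and 556 CPM in the sham libraries. Of the 9 markers, 6 rose at 1 day and 9 at 3 days, and 0 of them were at 0 in every library. For 4 of the 9 the effect was larger at 3 days by the test of the difference, which passed for none of the 3 hosts. Their part in the host values was not tested.

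The 3 microRNA hosts each had a time course of their own. Mir22hg rose 13.3-fold at 1 day and 2.33-fold at 3 days, Mir17hg rose 11.7-fold and 4.71-fold, and Dnm3os rose 7.26-fold at 3 days and was not called at 1 day. For all 3 the effect differed between the days past the test, and each of these calls was lost in 5 or 6 of the 8 fits that leave out 1 library. miR-22 is abundant in heart muscle, the miR-17-92 cluster promotes proliferation and is a target of Myc, and miR-199a and miR-214 are made in mesenchymal cells.

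Mir22hg (chromosome 11, 75461539 to 75466690) had 198 and 59.6 CPM in MI libraries A and B at 1 day, against 11.6 and 7.86 CPM in the sham libraries. The MI libraries of 3 days had 43.0 and 36.1 CPM, against 16.3 and 17.6 CPM in the sham libraries. The MI libraries at 1 day differed several-fold from each other, but the lower was still above every other library. At 1 day the log2 fold change was 3.74 (SE 0.50, adjusted p = 0.000651), at 3 days it was 1.22 (SE 0.46, adjusted p = 0.0449), and the effect at 3 days minus that at 1 day was -2.52 (SE 0.66, adjusted p = 0.0225). The value at 1 day was 2.52 without MI library A (adjusted p = 0.000176), 4.35 without MI library B (adjusted p = 2.83e-05) and 4.70 in the transcript tables (adjusted p = 0.000469), and the difference was -1.52 without MI library A. The call at 3 days was lost without any 1 of 6 libraries (adjusted p 0.0895 to 0.316), with limma-voom (0.0575) and in the transcript tables (0.0871).

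Mir17hg (chromosome 14, 115044390 to 115046728) had 21.5 and 24.2 CPM in the MI libraries at 1 day, against 2.26 and 1.61 CPM in the sham libraries. By 3 days its level was 22.1 and 19.9 CPM in the MI libraries, against 4.17 and 4.72 CPM in the sham libraries. The 4 MI libraries lay close together over both days, and the sham libraries of 1 day lay below those of 3 days. The log2 fold change was 3.55 (SE 0.28, adjusted p = 9.83e-05) at 1 day and 2.23 (SE 0.24, adjusted p = 4.07e-05) at 3 days. The effect at 3 days minus that at 1 day was -1.32 (SE 0.38, adjusted p = 0.034). That difference was not called in the transcript tables (adjusted p = 0.138), with limma-voom (0.0597), without the low-count filter (0.0812) or without any 1 of 6 libraries (0.0684 to 0.244). Between the infarcted groups, 3 days minus 1 day was -0.12 (SE 0.21, adjusted p = 0.673), and between the sham groups it was 1.20 (SE 0.32, adjusted p = 0.631).

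Dnm3os (chromosome 1, 162217623 to 162225550) had 11.3 and 27.0 CPM in the MI libraries at 1 day, against 15.1 and 7.75 CPM in the sham libraries. In the MI libraries of 3 days it had 138 and 140 CPM, against 12.1 and 26.1 CPM in the sham libraries. The groups overlapped at 1 day and were far apart at 3 days. The log2 fold change was 0.70 (SE 0.49, adjusted p = 0.278) at 1 day and 2.86 (SE 0.44, adjusted p = 0.000416) at 3 days, and the effect at 3 days minus that at 1 day was 2.16 (SE 0.65, adjusted p = 0.0373). Without MI library B the value at 1 day was -0.02 (adjusted p = 0.982), and without sham library B that at 3 days was 3.53 (adjusted p = 0.00102). The difference ranged from 1.49 without MI library A of 1 day (adjusted p = 0.132) to 2.92 without sham library B of 3 days (adjusted p = 0.0257). Dnm3os lies on the opposite strand within Dnm3, a dynamin gene, whose reads cannot be told apart from it without a known strand setting. Dnm3 had 4.46 and 5.51 CPM in the MI libraries at 3 days, against 6.78 and 19.6 CPM in the sham libraries, a log2 fold change of -1.40 (adjusted p = 0.0282), the other way from Dnm3os. The transcript tables hold a lone Dnm3os transcript of 557 bases with at most 10 reads in a library, too few to test.

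Fibroblast and proliferation markers rose at 3 days beside Dnm3os. The summed level of 10 fibroblast markers was 2012 and 2337 CPM in the MI libraries at 1 day, against 2528 and 3086 CPM in the sham libraries, and 17103 and 16989 CPM in the MI libraries at 3 days, against 4824 and 2377 CPM in the sham libraries. Of these, 2 rose and 4 fell at 1 day, and 7 rose and 0 fell at 3 days. The 10 proliferation markers summed to 65.4 and 82.8 CPM in the MI libraries at 1 day, against 51.6 and 87.0 CPM in the sham libraries, and to 1860 and 2019 CPM in the MI libraries at 3 days, against 147 and 103 CPM in the sham libraries. No marker of either list was at 0 in every library. Their part in the rise of Dnm3os was not tested.

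Neutrophil markers were also higher after MI on both days, as Mir22hg was. The 9 markers summed to 2193 and 1115 CPM in MI libraries A and B at 1 day, against 211 and 151 CPM in the sham libraries, and to 951 and 511 CPM in the MI libraries at 3 days, against 221 and 116 CPM in the sham libraries. As for Mir22hg, MI library A at 1 day was the highest and every MI library was above every sham library, but the order of the sham libraries differed. Of the 9, 0 were at 0 in every library, and their part in the level of Mir22hg was not tested.

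The hairpin genes themselves were hardly read. Mir22, Mir214, Mir199a-2 and Mir92-1 had 0 counts in all 8 libraries, which allows up to 0.102 to 0.369 CPM in a library (3 counts, counting error alone). Of the hairpins of Mir17hg, Mir18 had 22 and 14 counts in the MI libraries at 1 day, against 3 and 6 in the sham libraries, and 53 and 59 in the MI libraries at 3 days, against 15 and 9 in the sham libraries. It rose by 2.73 (adjusted p = 0.013) and by 1.69 (adjusted p = 0.0114), the direction of the host on both days. Mir19a had 6 and 6 counts in the MI libraries at 1 day, against 4 and 1 in the sham libraries, and 31 and 33 in the MI libraries at 3 days, against 0 and 2 in the sham libraries. The RefSeq span of Mir17hg begins at 115044390, after the hairpin genes Mir17, Mir18, Mir19a and Mir20a, while its transcript in the deposited tables begins at 115042879. Mature microRNAs were not measured.

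Factors known to act on these hosts, and genes known as targets of their microRNAs, were read from fixed lists. The shares over all genes tested were 19.3% higher and 19.7% lower at 1 day, and 31.7% higher and 23.7% lower at 3 days. Of 10 regulators, 4 rose and 1 fell at 1 day, and 8 rose and 1 fell at 3 days. Myc, which drives transcription of the miR-17-92 cluster, rose by 3.88 (adjusted p = 0.000678) at 1 day, and E2f2, of the E2F family that also binds there, rose by 3.24 (adjusted p = 0.000149) at 3 days. Of 6 targets of miR-22, 4 rose and 0 fell at 1 day, with Tet2, an enzyme of DNA demethylation, at 1.90 (adjusted p = 0.000632), and 2 rose and 1 fell at 3 days, with the deacetylase gene Hdac4 at -1.34 (adjusted p = 0.0106). Of 8 targets of the miR-17-92 cluster, 4 rose and 0 fell on each day, and the matrix protein gene Thbs1 had the largest change on both, 4.30 (adjusted p = 0.000291) and 3.86 (adjusted p = 9.13e-05). Of 11 targets of miR-199a and miR-214, 2 rose and 2 fell at 1 day, with Hif1a, a sensor of low oxygen, at 1.90 (adjusted p = 0.000182), and 3 rose and 6 fell at 3 days, with Hopx, a heart homeobox gene, at -3.72 (adjusted p = 3.38e-06). Of 12 genes of microRNA processing, 2 rose and 3 fell at 1 day, near the shares over all genes. At 3 days 2 of these 12 rose and 2 fell, below the shares over all genes. The Argonaute gene Ago4 changed most among these on both days, by -1.25 (adjusted p = 0.00306) and -1.58 (adjusted p = 0.000236). Several of these targets are heart muscle genes, and the 10 cardiomyocyte markers summed to 54660 and 39788 CPM in the MI libraries at 1 day, against 117999 and 111169 CPM in the sham libraries, and to 4599 and 4914 CPM in the MI libraries at 3 days, against 82241 and 88003 CPM in the sham libraries.

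Beyond these 9, 23 further long noncoding RNAs and microRNA hosts from a fixed list were tested. At 1 day 4 rose and 4 fell, and at 3 days 11 rose and 4 fell, with medians of 0.51 and 0.58. Of all genes tested, 19.3% rose and 19.7% fell at 1 day, and 31.7% rose and 23.7% fell at 3 days. The counts of this list at 1 day were near those shares. The largest called changes were those of Gm14005, 2.58 (adjusted p = 0.000793) at 1 day, and Nespas, an antisense transcript of the imprinted Gnas locus, 4.01 (adjusted p = 0.0017) at 3 days.

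Compared per length, Malat1 was far above the others. Reads per kilobase of transcript, summed over a gene's transcripts and scaled to CPM, placed it 10th to 27th among 31126 genes, at 2806 to 3928 in the MI libraries and 2168 to 5647 in the sham libraries. On the same scale Gas5 had 81.9 to 289 in the MI libraries and 29.6 to 71.9 in the sham libraries. Neat1 had 41.8 to 194 in the MI libraries and 57.2 to 185 in the sham libraries, so that its range overlapped that of Gas5. Next came Mir22hg, with 10.02 to 81.8 in the MI libraries and 1.67 to 4.37 in the sham libraries, and then Mir17hg, with 4.496 to 7.87 in the MI libraries and 0.414 to 1.31 in the sham libraries. Miat reached at most 0.379 in the MI libraries and 0.220 in the sham libraries, and Dnm3os, by its 557-base transcript, at most 1.38 in the MI libraries and 0.163 in the sham libraries. Snhg1 had 41.8 to 631 in the MI libraries and 155 to 445 in the sham libraries, and Snhg12 had 15.5 to 142 in the MI libraries and 20.5 to 44.4 in the sham libraries. These levels include the transcripts that span snoRNA genes, so the place of Snhg1 and Snhg12 in the order is not firm.

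The genes with the closest patterns over the 8 libraries were sought among 10842 genes by the root mean square difference of centred log2 CPM. For Malat1 these were Pcdhgb4 (0.158) and Secisbp2 (0.171), and for Neat1 they were Als2cl (0.257) and AB041803 (0.276). Gas5 was closest to Casp4 (0.137), an inflammatory caspase gene, and Dock10 (0.189). Snhg1 was closest to Fcgr2b (0.111) and Fcgr3 (0.172), Fc receptor genes of myeloid cells. The nearest to Snhg12 were Myo1d (0.120) and Nop56 (0.123), Nop56 encoding a core protein of snoRNA particles. Mir22hg was closest to Sesn2 (0.345) and Pfkfb3 (0.359), Mir17hg to Gsap (0.348) and Il1rap (0.350), and Dnm3os to Ccne2 (0.348) and Aurka (0.371), genes of the cell cycle. For scale, the members' own root mean square distance from their mean over the libraries was 0.553 for Malat1, the lowest, and 1.495 for Mir17hg, the highest.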

How the data were processed

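Total RNA of 8 libraries, 2 mice in each of 4 groups, was analysed from the authors' files. Per the file headers and values, the deposited count tables, 1 per day, hold raw read counts per gene, and the transcript tables hold total read counts per transcript beside its length. A further 40 per-library columns of those tables, such as unique reads, were not used. The authors also deposited DESeq2 tables that give log2 fold changes and adjusted p-values. Their fold changes are MI over sham in the 1-day table but sham over MI in that of 3 days. The one quoted is from the 1-day table. The submitters' processing notes name, without roles, TopHat2 2.0.14, Bowtie2 2.2.5, SAMtools 0.1.2, HTSeq, FastQC, DESeq2 and mm10. The annotation, the strand setting and the program behind the transcript tables were not given in the sources used here.

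The count tables share 24062 gene symbols. Genes with low counts were removed with filterByExpr (15508 tested, 8554 not), normalised by TMM and fitted together by group with the quasi-likelihood test of edgeR 4.0.16 under R 4.3.3. P-values are 2-sided and adjusted by Benjamini-Hochberg over all genes tested. CPM values use effective library sizes. Libraries held 7382490 to 25041386 counts, and limits for 0 counts cover counting error alone. Transcript reads were summed per gene (14662 tested) with the library sizes and TMM factors of the gene counts. The count columns of the sham group at 1 day share a name, so libraries A and B of that group need not match between tables. DESeq2 1.42.0 and limma 3.58.1 (voom) served as alternatives. The fitting was tested on simulated data. Genes carried within a host were found by RefSeq coordinates without strand (GRCm38.p6). Genes named from a list are its called member with the largest change on each day, except that the other snoRNA hosts are given in full. For each tested transcript the 2 genes with the most alike pattern are named, among genes that average 5 CPM or more. Genes that overlap or lie within a host are given whatever their values. Some genes that these rules name are not reported here. The members and lists were chosen with earlier results of these data known.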

Additional observations from a re-analysis of the deposited data

Results flagged for a closer look

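For 5 of the 8 transcripts tested, the effect of MI at 3 days differed from that at 1 day by the edgeR quasi-likelihood test of the difference itself (Benjamini-Hochberg adjusted p), where 24.5% of all genes tested were called. The log2 difference, 3 days minus 1 day, was -1.98 for Malat1 (adjusted p = 0.0102), -3.11 for Neat1 (adjusted p = 0.0105), -2.52 for Mir22hg (adjusted p = 0.0225), -1.32 for Mir17hg (adjusted p = 0.034) and 2.16 for Dnm3os (adjusted p = 0.0373). The fitted change of Malat1 and of Neat1 was above 0 at 1 day, where that of Neat1 was not called, and below 0 at 3 days. Mir17hg had 19.9 to 24.2 CPM in the 4 MI libraries, and 4.17 and 4.72 CPM in the sham libraries at 3 days against 2.26 and 1.61 CPM in those at 1 day. These 5 calls rest on 2 libraries a group, and a batch that coincided with day or surgery cannot be told apart from either. None of the 5 was kept without sham library A of 1 day or without MI library B of 3 days, and each difference kept its direction when any 1 library was left out.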

How the results depend on the processing

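The rise of Gas5, Snhg1, Snhg12 and Mir17hg on both days, of Mir22hg at 1 day and of Dnm3os at 3 days was called without any 1 library, under other scalings, without the low-count filter, with DESeq2 and with limma-voom. Depth limits Miat and the snoRNA and hairpin genes with few counts. Scaling by library size alone moved the median log2 fold change of all genes by 0.27 at 1 day and 0.26 at 3 days; with it Mir17hg at 3 days minus 1 day after MI was 0.053, and 0.024 without the filter. The Neat1 change at 1 day was called with DESeq2 (adjusted p = 0.0276), with library size alone (0.0237) and without MI library B (0.0331). The rise of Malat1 at 1 day was not called without the filter (0.0803) or without both 1-day libraries with most receptor genes read (0.18), and that of Mir22hg at 3 days was not called with DESeq2 size factors (0.0657) or without the filter (0.0563). The Mir17hg difference was not called without the filter (0.0812), with limma-voom (0.0597) or in the transcript tables (0.138), and after MI over time Gas5 and Snhg1 were not called with DESeq2 (0.0864 and 0.103) or its size factors (0.0853 and 0.0852).

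In the transcript tables with all reads, 5 members were called at 3 days, where 53.8% of all genes tested there were called. Mir22hg and Snhg1 were not called, and Miat and Dnm3os were not tested. Values there turned to the other sign for Snhg1 at 1 day (-1.45), in sham animals over time (-0.71), and for Snhg12 at 1 day (-0.13), in the difference (1.89, called with adjusted p = 0.0308), after MI over time (1.49, called with adjusted p = 0.011) and after sham over time (-0.40). The cause was not tested. A fit on unique reads was not run, since those columns were not used.

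With any 1 library left out, 5 to 6 members were called at 1 day, 5 to 8 at 3 days, 0 to 5 for the difference and 1 to 7 for 3 days against 1 day after MI. Without both 1-day libraries with most chemosensory receptor genes read, the difference and 3 days against 1 day after MI each had 3 calls, and Dnm3os at 1 day was -0.42. Leaving out 1 library, Dnm3os at 1 day ranged from -0.020 (without MI library B) to 1.18. The differences that were not called ranged from -0.49 to 0.0058 for Gas5 (above 0 without sham library A of 3 days) and from -0.17 to 0.79 for Snhg1 (below 0 without MI library A or sham library B of 3 days). Fewer samples were fitted in each of these, and the shares of all genes called in them are not given here. For sham animals, 3 days against 1 day, edgeR called 0 of the members and 0 genes in all. It gave 1210 genes, 3 of the members among them, an unadjusted p under 0.05. DESeq2 called 43 genes and limma-voom 0. No paired analysis was possible because the count columns carry no replicate number and 2 of them share a name.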
